A study of Mus musculus with 34 samples.

Results

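Selenbp1, Enpp2, Plcxd1, Vldlr, Itga7, Dpf1 and Matk are 7 of the 27179 gene identifiers counted in cultured mouse CD4 T cells, and they were chosen because their counts rise steeply with the number in the label of 1 culture, Tfh2. The choice used the measured counts of the Tfh2 libraries, so the rise along those numbers is described here without a test. Values in the cultures coded TfhA and Tfh5 were not part of the choice. Among the 6733 genes with a mean log2 level of at least 3 over all libraries, the slope of the log2 level on the log2 number within Tfh2 placed Enpp2 at rank 1, Plcxd1 at 3, Dpf1 at 5, Vldlr at 6, Itga7 at 8 and Matk at 12. The ranks between belonged to 6 genes outside the set, Slamf7 (2), Slc2a3 (4), Ly6c1 (7), H2-Ab1 (9), Il24 (10) and H2-Q7 (11), so the 7 are not the only genes that rose this steeply. Lrrc32 at rank 13 and Ndrg1 at rank 15, just below Matk, had slopes of 1.73 and 1.72, close to the 1.74 of Matk. Selenbp1 had a slope of 3.03 and was not ranked, because its mean log2 level of 2.95 lay under the minimum.

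Naive CD4 T cells of C57BL/6 mice had been activated in culture for 3.5 days by plate-bound antibodies against CD3 and CD28, then sorted by flow cytometry and made into libraries that read the 3-prime end of each transcript. The groups were TfhA_4e4 with 5 libraries, Tfh5_4e4 with 6, and Tfh2 at 1e4 with 6, at 2e4 with 5, at 4e4 with 6 and at 6e4 with 6. What a code means, which unit the number has and how the sort was gated are not in the labels, and groups are named as labelled. Whether replicates stand for separate animals is also not given, so the p-values here cover only the spread among these libraries, which may be technical. Total counts were 4481509 to 9934245 per library. Levels are given as CPM, the count scaled to a common library total after normalization by trimmed means, with the SD over libraries. All 8 CD4 T cell markers looked for were found in every group, the NK cell, erythroid and platelet markers were at 0 counts in every Tfh2 and Tfh5 group, and summed B cell markers did not exceed 1.52 CPM in any library. Summed myeloid or dendritic markers reached at most 2.01 CPM. Of the CD8 T cell markers, Cd8b1 averaged 9.69 CPM in TfhA_4e4, 8.22 CPM in Tfh5_4e4 and 5.59 to 7.60 CPM in the Tfh2 groups, while Cd8a had 19 counts over all libraries, and their part in the results was not tested.

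Enpp2 encodes autotaxin, a secreted enzyme that makes the signalling lipid lysophosphatidic acid (LPA), which in lymphoid tissue is made at the vessels where T cells enter. Vldlr is a receptor that takes up lipoproteins and, in the brain, receives the reelin signal. Itga7 is the alpha chain of a laminin receptor best known from muscle, where it pairs with the integrin beta 1 chain. Matk is a kinase related to Csk that restrains Src family kinases. Dpf1 is a subunit of the BAF chromatin remodelling complex best known from neurons, Selenbp1 oxidises methanethiol, and Plcxd1 carries the catalytic X domain of phospholipase C. T follicular helper (TFH) cells, named in the series title, are the CD4 T cells that help B cells in germinal centres.

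Promoter windows of 300 bases, which run from 250 bases before to 50 after a transcription start, were available from RefSeq (GRCm38.p6) for 5 of the 7 genes, and those of Selenbp1, Plcxd1, Dpf1 and Matk are shown because they hold the letters searched. Capitals mark ACGTG and GCGTG, the core letters bound by hypoxia-inducible factors, on either strand (CACGT and CACGC when read on the strand printed). The window of Selenbp2, a close paralog of Selenbp1, stands beside it because the counts of that pair differed widely. Windows lie at chr3:94932833-94933132 for Selenbp1, chr3:94693323-94693622 for Selenbp2, chr5:110100309-110100608 for the second start of Plcxd1, chr7:29303755-29304054 for Dpf1 and chr10:81252685-81252984 for the first start of Matk, all on the plus strand.
Selenbp1: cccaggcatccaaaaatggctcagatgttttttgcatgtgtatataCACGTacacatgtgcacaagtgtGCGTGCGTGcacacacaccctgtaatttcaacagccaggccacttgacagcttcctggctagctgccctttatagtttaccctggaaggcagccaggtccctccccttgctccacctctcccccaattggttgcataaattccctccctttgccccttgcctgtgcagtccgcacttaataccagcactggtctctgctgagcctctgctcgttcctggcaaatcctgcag
Selenbp2: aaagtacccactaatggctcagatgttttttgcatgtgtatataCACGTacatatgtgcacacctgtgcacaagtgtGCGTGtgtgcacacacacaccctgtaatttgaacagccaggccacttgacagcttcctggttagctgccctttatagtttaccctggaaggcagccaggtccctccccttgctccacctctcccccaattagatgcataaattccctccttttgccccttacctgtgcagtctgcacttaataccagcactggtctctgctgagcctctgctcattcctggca
Plcxd1: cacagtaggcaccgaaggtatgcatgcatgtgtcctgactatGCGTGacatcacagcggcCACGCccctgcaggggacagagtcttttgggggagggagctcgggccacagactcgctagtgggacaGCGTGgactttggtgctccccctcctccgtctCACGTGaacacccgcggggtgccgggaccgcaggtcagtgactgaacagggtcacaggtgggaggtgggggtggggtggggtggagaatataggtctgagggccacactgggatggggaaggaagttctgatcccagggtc
Dpf1: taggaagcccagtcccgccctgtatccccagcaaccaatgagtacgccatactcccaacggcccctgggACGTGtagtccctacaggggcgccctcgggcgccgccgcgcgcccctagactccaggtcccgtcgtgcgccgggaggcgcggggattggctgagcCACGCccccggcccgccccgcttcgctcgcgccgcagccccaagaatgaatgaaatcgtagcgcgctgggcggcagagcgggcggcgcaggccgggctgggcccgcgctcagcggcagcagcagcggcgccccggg
Matk: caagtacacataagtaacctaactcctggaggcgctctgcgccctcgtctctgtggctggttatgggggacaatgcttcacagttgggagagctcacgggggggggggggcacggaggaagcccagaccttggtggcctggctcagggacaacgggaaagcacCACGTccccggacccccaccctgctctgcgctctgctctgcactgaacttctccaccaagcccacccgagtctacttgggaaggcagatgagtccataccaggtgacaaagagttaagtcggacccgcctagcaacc
ACGTG or GCGTG was found in 6 of the 8 windows of the 5 genes, and in 4 of the 5 genes. The same letters were found in 43.8% of all 32851 windows, ACGTG alone in 19.6% and GCGTG alone in 32.4%. These shares are per window. No share per gene was computed, and a gene with several windows has more places for a match. The E-box CACGTG, which contains ACGTG, was found in the second window of Plcxd1 only and in 7.15% of all windows. TGANTCA, the letters bound by AP-1, was in none of the 8 windows and in 7.81% of all. Both Vldlr windows held none of the letters searched. These matches describe the letters of the windows and not binding.

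**Figure D1:**
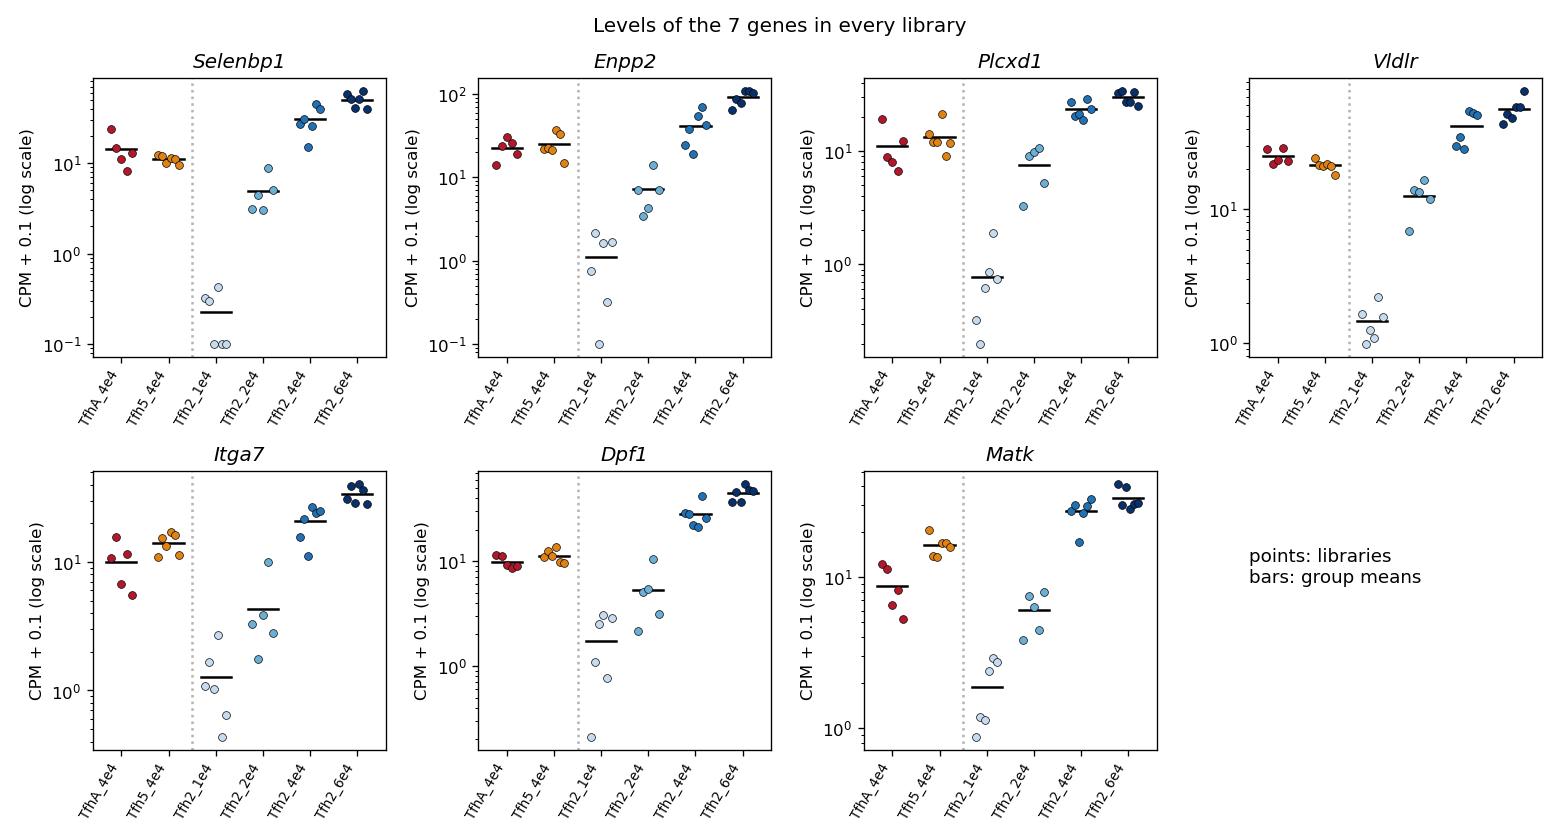
Levels of the 7 genes in each library, as CPM + 0.1 on a log scale, with a panel per gene, a point per library and a bar at the group mean; 5 or 6 libraries per group. Within Tfh2 the means step up at every number for all 7 genes, and the TfhA_4e4 and Tfh5_4e4 means lie between those of Tfh2_2e4 and Tfh2_4e4.

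Along the Tfh2 numbers, Selenbp1 showed the widest range of the 7 genes. Its level in the 6 Tfh2_1e4 libraries was 0 CPM at the lowest, 0.0981 at the median and 0.327 at the highest, with 7 counts in all and no count in 3 libraries. The 5 Tfh2_2e4 libraries had 3.02, 4.36, 2.95, 8.70 and 4.91 CPM. In Tfh2_4e4 the lowest, median and highest levels were 14.8, 28.7 and 44.6 CPM, and in Tfh2_6e4 they were 39.0, 50.7 and 62.4 CPM. No library overlapped between neighbouring numbers up to 4e4, whereas the 4e4 and 6e4 libraries did overlap. The ratio of the Tfh2_6e4 mean to the Tfh2_1e4 mean was 404, with a 95% interval of 200.2 to 1029 that covers counting error only and is wide because so few counts were seen at 1e4. Fewer cells that express a gene and less RNA of it per cell cannot be told apart in such bulk libraries.

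Selenbp1 lies on chromosome 3 at 94933083 to 94944758 and its paralog Selenbp2 at 94693573 to 94704406. Over their longest coding transcripts the pair shares 98.5% of aligned bases, over the last 300 bases 98.3%, and over the promoter windows 94.4%. Selenbp2 had 4 counts in Tfh2_6e4 replicate 4 and none in the other 33 libraries, against the 2150 counts of Selenbp1 in Tfh2_6e4. How reads that fit both genes were treated is not given in the sources used here, so the Selenbp1 level is uncertain to that extent.

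Enpp2 (chromosome 15, 54838901 to 54952789) reached the highest level of the 7 genes at 6e4. It had 0, 1.09 and 2.06 CPM as lowest, median and highest of the Tfh2_1e4 libraries. The Tfh2_2e4 libraries had 7.01, 3.33, 4.22, 13.8 and 6.95 CPM. The Tfh2_4e4 libraries ranged widely, with 19.1 CPM at the lowest, 40.1 at the median and 70.7 at the highest, while the Tfh2_6e4 libraries had 64.8, 94.7 and 108 CPM. The means were 1.004 ± 0.828, 7.06 ± 4.11, 41.4 ± 19.1 and 91.4 ± 18.2 CPM in the order of the numbers (SD, n = 6, 5, 6 and 6). Enpp2 was the gene whose rise flattened least: its mean was 2.21-fold higher at 6e4 than at 4e4, although 1 library at 6e4 (64.8 CPM) lay under the highest at 4e4.

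Vldlr (chromosome 19, 27216480 to 27254231) had 0.883, 1.30 and 2.12 CPM as lowest, median and highest level in Tfh2_1e4. The Tfh2_2e4 libraries had 6.74, 14.0, 13.5, 16.6 and 11.9 CPM. In Tfh2_4e4 the lowest, median and highest were 28.2, 42.6 and 54.5 CPM, and in Tfh2_6e4 43.2, 55.1 and 76.9 CPM. Plcxd1 (chromosome 5, 110099969 to 110105953) followed the same course at lower levels, with means of 0.671 ± 0.600, 7.50 ± 3.21, 23.2 ± 3.87 and 29.6 ± 3.80 CPM. For both genes the libraries of neighbouring numbers did not overlap up to 4e4 and overlapped between 4e4 and 6e4.

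Itga7, Dpf1 and Matk had counts in every Tfh2_1e4 library, as did Vldlr and Plcxd1. Itga7 (chromosome 10, 128933421 to 128958286) averaged 1.17 ± 0.828, 4.23 ± 3.23, 20.6 ± 6.08 and 33.8 ± 5.18 CPM from 1e4 to 6e4. Dpf1 (chromosome 7, 29303952 to 29317592) averaged 1.64 ± 1.20, 5.17 ± 3.22, 28.0 ± 7.58 and 44.4 ± 6.75 CPM. Matk (chromosome 10, 81252935 to 81262985) averaged 1.77 ± 0.905, 5.91 ± 1.84, 27.1 ± 5.50 and 33.2 ± 5.54 CPM. The Itga7 and Dpf1 libraries of 1e4 and 2e4 overlapped, while those of Matk did not. Itga7 was the only one of the 7 genes whose lowest level at 6e4 (28.4 CPM) exceeded its highest at 4e4 (26.5 CPM).

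The largest step did not fall at the same place in every gene. Between 1e4 and 2e4 the log2 ratio of means was 5.27 for Selenbp1, 3.48 for Plcxd1, 3.21 for Vldlr and 2.81 for Enpp2, which was the largest step of each. That step held 60.9% of the whole log2 rise of Selenbp1, 63.7% of Plcxd1, 59.8% of Vldlr and 43.2% of Enpp2. For Itga7, Dpf1 and Matk the first step was 1.86, 1.66 and 1.74, and the step between 2e4 and 4e4 was larger at 2.29, 2.43 and 2.20. For Enpp2 the order rests on 2.81 against 2.55 and turned without Tfh2_2e4 replicate 5, and the 95% counting intervals of the first and second ratio overlapped for Enpp2 (4.84 to 8.68 and 5.35 to 6.99) and for Matk (2.75 to 4.44 and 3.80 to 5.05). Per doubling of the number, the last step, between 4e4 and 6e4, was the smallest for all 7 genes, at 0.50 for Matk to 1.96 for Enpp2. On the linear scale the order differed: the CPM difference was largest between 2e4 and 4e4 for 6 genes, and for Enpp2 between 4e4 and 6e4 (50.1 CPM).

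**Figure D2:**
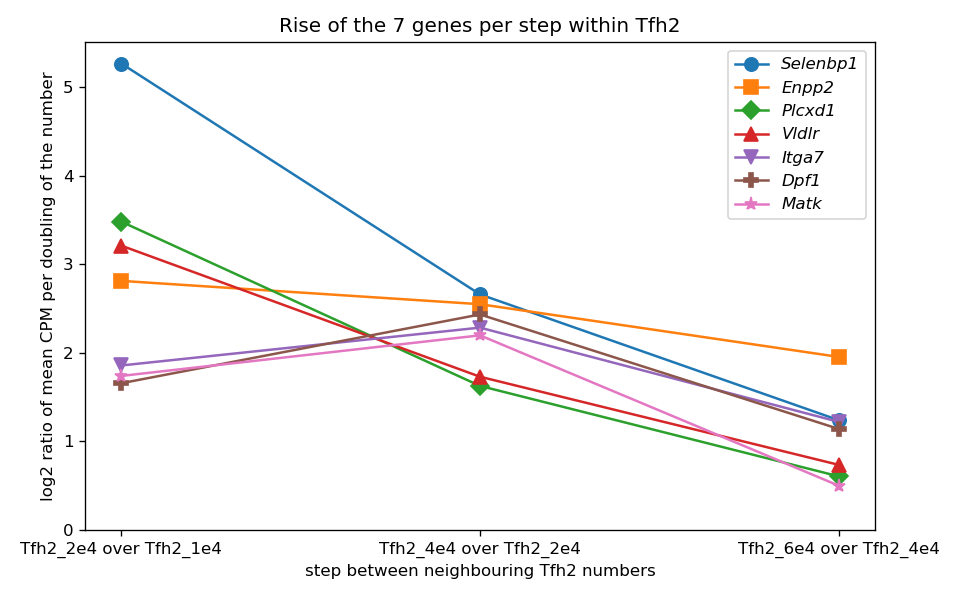
Log2 ratio of the mean CPM of neighbouring Tfh2 numbers, per doubling of the number, with a line per gene; each mean is over 5 or 6 libraries and no error is drawn. Selenbp1, Plcxd1, Vldlr and Enpp2 decline from the first step on, whereas Itga7, Dpf1 and Matk peak at the second; the order of the first and second step of Enpp2 turns without Tfh2_2e4 replicate 5.

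Every library of the higher number lay above every library of the lower number for 5 of the 7 genes at the first step, 7 at the second and 1 at the last. Of all 11357 genes tested, 2.45%, 4.31% and 0.643% did so at these steps. Between the ends of the series, 6e4 and 1e4, it held for all 7 genes and for 13.1% of all genes. Since the genes were chosen on this series, these shares are given as its background alone. Tfh2_2e4 replicate 5 had the highest level of its group in 6 of the 7 genes and Tfh2_4e4 replicate 3 the lowest in 5 of 7. Without that Tfh2_2e4 library the first step ranged over 1.24 to 4.94 on the log2 scale and the second over 1.78 to 2.99, and the second step was then the larger one for Enpp2 too (2.94 against 2.42). Without that Tfh2_4e4 library the second step ranged over 1.65 to 2.80 and the last over 0.19 to 0.996.

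In TfhA_4e4 all 7 genes were lower than in Tfh2_4e4, and all 7 passed the test (edgeR quasi-likelihood, adjusted over all 11357 genes). Of all genes 17.4% were called lower in this comparison, 15.5% higher and 32.8% in either direction. The median log2 fold change of the 7 genes was -1.11, against -0.01 over all genes tested. The Tfh2_4e4 libraries belong to the series on which the genes were chosen, whereas TfhA_4e4 does not. A choice by steep rise can favour genes that were high in those libraries. The lower calls and their p-values against Tfh2_4e4 are therefore not independent of the choice.

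Matk and Dpf1, the Src family brake and the BAF subunit, were furthest apart between these cultures. Matk had 12.1, 11.2, 6.46, 8.14 and 5.17 CPM in the TfhA_4e4 libraries, against a lowest of 16.9, a median of 28.3 and a highest of 32.9 CPM in Tfh2_4e4. Dpf1 had 11.3, 11.2, 9.11, 8.50 and 8.93 CPM in TfhA_4e4, against 21.1, 26.9 and 42.0 CPM as lowest, median and highest in Tfh2_4e4. For both genes every TfhA_4e4 library lay below every Tfh2_4e4 library, which was so for 9.86% of all genes. The log2 fold change was -1.65 (SE 0.231, edgeR adjusted p = 1.39e-07) for Matk and -1.51 (SE 0.281, adjusted p = 2.81e-05) for Dpf1.

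The other 5 genes overlapped between the cultures in at least 1 library. Selenbp1 had 23.6, 14.7, 11.1, 8.14 and 12.7 CPM in TfhA_4e4, against 14.8, 28.7 and 44.6 CPM as lowest, median and highest in Tfh2_4e4, with a log2 fold change of -1.12 (SE 0.246, edgeR adjusted p = 0.000303). Plcxd1 averaged 10.9 ± 4.94 CPM in TfhA_4e4 and 23.2 ± 3.87 CPM in Tfh2_4e4, a log2 fold change of -1.11 (SE 0.272, adjusted p = 0.0012). Itga7 averaged 9.96 ± 4.06 CPM in TfhA_4e4 and 20.6 ± 6.08 CPM in Tfh2_4e4, a log2 fold change of -1.04 (SE 0.292, adjusted p = 0.00431). In each of these 3 genes, all 5 TfhA_4e4 libraries lay below the Tfh2_4e4 mean. Vldlr and Enpp2 had the smallest log2 fold changes of the 7 genes, though the order among the genes was not tested. Vldlr averaged 25.04 ± 3.18 CPM in TfhA_4e4 and 41.7 ± 12.2 CPM in Tfh2_4e4 (log2 fold change -0.73, SE 0.181, edgeR adjusted p = 0.00126). Enpp2 had 13.9, 23.8, 30.6, 26.0 and 18.8 CPM in TfhA_4e4, against a lowest of 19.1, a median of 40.1 and a highest of 70.7 CPM in Tfh2_4e4. Its log2 fold change of -0.86 (SE 0.293, edgeR adjusted p = 0.0204) was not called by DESeq2 (-0.84, adjusted p = 0.0768), without Tfh2_4e4 replicate 5 (-0.65) or without TfhA_4e4 replicate 1 (-0.73).

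**Figure D3:**
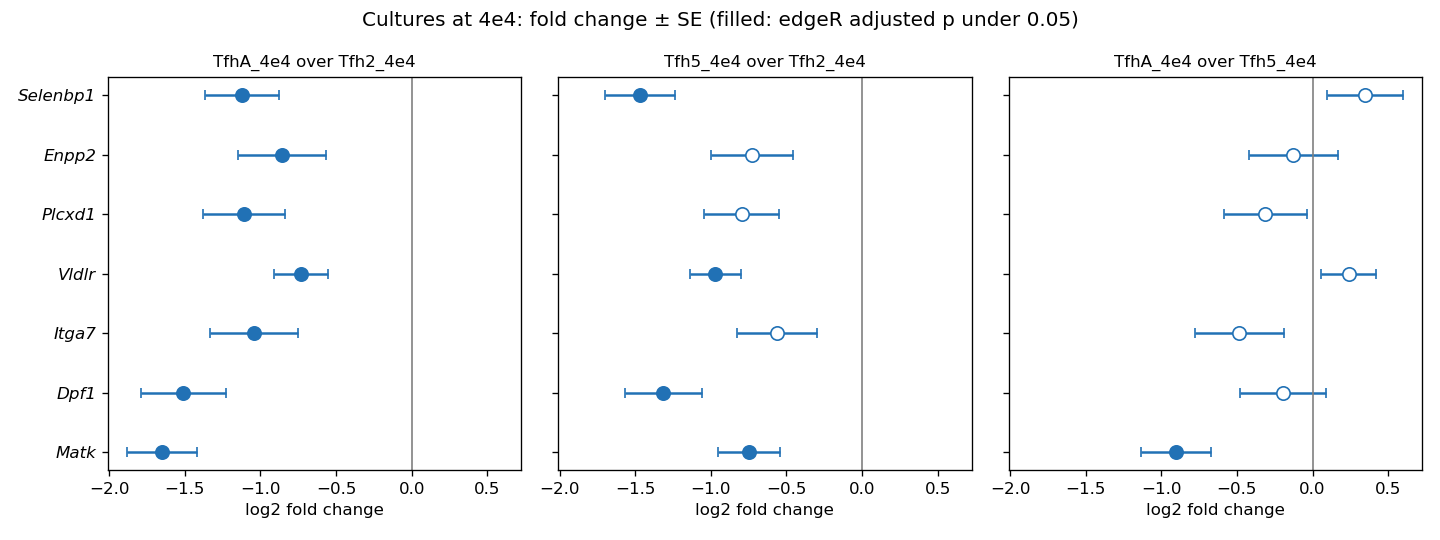
Log2 fold change with its SE of the 7 genes in the 3 comparisons of cultures at 4e4, from edgeR; filled points have an adjusted p under 0.05. All 7 genes are filled and negative for TfhA_4e4 over Tfh2_4e4, 4 for Tfh5_4e4 over Tfh2_4e4, and Matk alone for TfhA_4e4 over Tfh5_4e4.

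In Tfh5_4e4 the 7 genes had negative log2 fold changes against the same Tfh2_4e4 libraries, and 4 of them passed the test. Here too the Tfh2_4e4 libraries were part of the choice of the genes, which can favour lower calls. Of all genes 1.7% were called lower, 1.41% higher and 3.11% in either direction. Selenbp1 had a lowest level of 9.37, a median of 11.1 and a highest of 12.1 CPM in Tfh5_4e4, against 14.8, 28.7 and 44.6 CPM in Tfh2_4e4, a log2 fold change of -1.47 (SE 0.231, edgeR adjusted p = 5.05e-05). Vldlr had 18.0, 21.2 and 24.2 CPM in Tfh5_4e4, against 28.2, 42.6 and 54.5 CPM in Tfh2_4e4, a log2 fold change of -0.97 (SE 0.171, adjusted p = 0.000257). Dpf1 had 9.55, 11.01 and 13.4 CPM in Tfh5_4e4, against 21.1, 26.9 and 42.0 CPM in Tfh2_4e4, a log2 fold change of -1.32 (SE 0.256, adjusted p = 0.00093). The libraries of these 3 genes did not overlap between the cultures, with every Tfh5_4e4 library the lower, as for 1.21% of all genes.

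Matk overlapped, at 13.5, 16.2 and 20.3 CPM in Tfh5_4e4 against 16.9, 28.3 and 32.9 CPM in Tfh2_4e4 (lowest, median and highest). Its log2 fold change of -0.75 (SE 0.204, edgeR adjusted p = 0.0292) lost its call when any of 6 single libraries was left out (Tfh2_4e4 replicates 2, 5 and 6, and Tfh5_4e4 replicates 2, 3 and 6), with values of -0.69 to -0.75 and adjusted p of 0.0514 to 0.0758. Enpp2, Plcxd1 and Itga7 did not pass. Enpp2 averaged 24.8 ± 8.12 CPM in Tfh5_4e4 and 41.4 ± 19.1 CPM in Tfh2_4e4 (log2 fold change -0.73, SE 0.272, adjusted p = 0.149). Plcxd1 averaged 13.3 ± 4.17 CPM in Tfh5_4e4 and 23.2 ± 3.87 CPM in Tfh2_4e4 (-0.79, SE 0.248, adjusted p = 0.0683), and passed under DESeq2 (adjusted p = 0.0291), limma-voom (0.0106) and the fit with a block for the replicate number (0.038). Itga7 averaged 13.95 ± 2.61 CPM in Tfh5_4e4 and 20.6 ± 6.08 CPM in Tfh2_4e4 (-0.56, SE 0.265, adjusted p = 0.311).

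TfhA_4e4 and Tfh5_4e4, neither of which was used to choose the genes, differed past the threshold in 1 of the 7. That gene was Matk, with 12.1, 11.2, 6.46, 8.14 and 5.17 CPM in TfhA_4e4 against a lowest of 13.5, a median of 16.2 and a highest of 20.3 CPM in Tfh5_4e4. Its libraries did not overlap, as for 12.6% of all genes in this direction, and its log2 fold change was -0.90 (SE 0.232, edgeR adjusted p = 0.0015). Of all genes 20.4% were called lower, 19.1% higher and 39.5% in either direction. The log2 fold changes of the other 6 genes were 0.35 for Selenbp1, 0.24 for Vldlr, -0.13 for Enpp2, -0.20 for Dpf1, -0.31 for Plcxd1 and -0.48 for Itga7, with SE of 0.182 to 0.295 and adjusted p of 0.195 to 0.767. Differences of that size were not detectable against the spread of these libraries, and a p that misses the threshold does not show that levels were equal.

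Set on the Tfh2 series, both cultures fell between the same numbers in every gene. The mean of each of the 7 genes in TfhA_4e4 and in Tfh5_4e4 lay above the Tfh2_2e4 mean and below the Tfh2_4e4 mean. Interpolated on log scales between those means, the Tfh2 number with the same level was 2.37 (Matk) to 3.16 (Enpp2) in units of 1e4 for TfhA_4e4, with a median of 2.91. For Tfh5_4e4 it was 2.71 (Vldlr) to 3.37 (Itga7), with a median of 2.84. In the order of the 6 group means, TfhA_4e4 stood above Tfh5_4e4 for Selenbp1 and Vldlr and below it for the other 5 genes. Of these neighbours only Matk separated without overlap. Libraries of TfhA_4e4 overlapped with those of Tfh2_2e4 for Selenbp1, Plcxd1, Itga7, Dpf1 and Matk, and libraries of Tfh5_4e4 did for Plcxd1 and Dpf1. With Tfh2_4e4, libraries of TfhA_4e4 overlapped for every gene but Dpf1 and Matk. Those of Tfh5_4e4 overlapped with Tfh2_4e4 for Enpp2, Plcxd1, Itga7 and Matk.

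**Figure D4:**
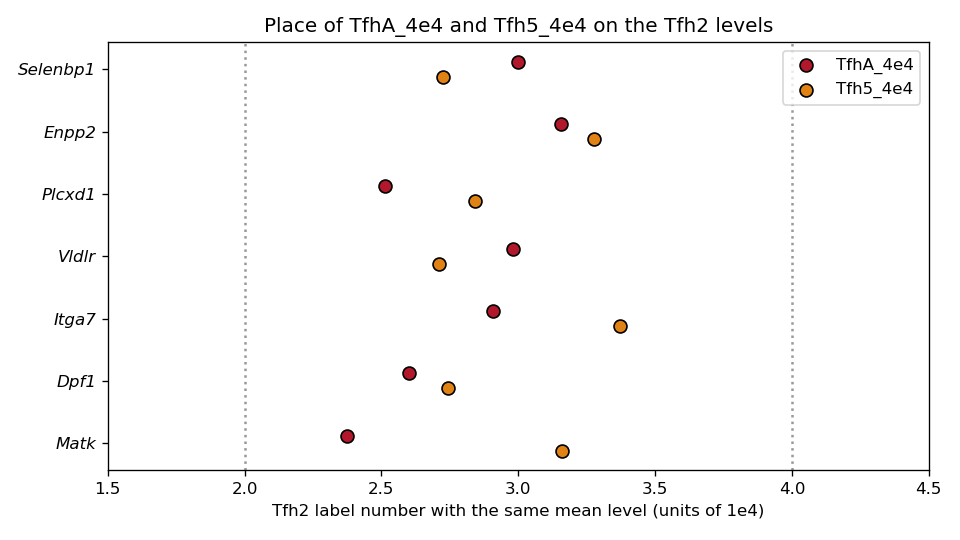
Tfh2 number, in units of 1e4, at which the interpolated Tfh2 mean equals the mean of TfhA_4e4 (red) and of Tfh5_4e4 (orange), for each gene; dotted lines mark 2e4 and 4e4 and no error is drawn. All 14 points lie between the lines.

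The range of the replicate numbers moved with some of these levels. Enpp2 was higher in every library numbered 4 to 6 than in every library numbered 1 to 3, at 41.9 to 70.7 CPM against 19.1 to 38.3 CPM in Tfh2_4e4 and at 103 to 108 CPM against 64.8 to 86.0 CPM in Tfh2_6e4. Vldlr showed the same split, which 2.34% of all genes showed in both groups. For both genes the ranges overlapped in Tfh2_1e4, Tfh2_2e4, Tfh5_4e4 and TfhA_4e4. What the numbers mark is not in the labels, and the split was chosen after these values were seen. Within numbers 1 to 3, all 7 log2 fold changes of TfhA_4e4 over Tfh2_4e4 were negative, and 3 genes passed: Plcxd1 (-0.96), Dpf1 (-1.33) and Matk (-1.33). The others were -0.56 for Selenbp1, -0.57 for Itga7, -0.34 for Vldlr and -0.26 for Enpp2. Within numbers 4 to 6, with 2 TfhA_4e4 libraries, all 7 genes passed, at -1.03 for Vldlr to -2.11 for Matk. Of all genes tested in this comparison, 2300 of 11745 were called within numbers 1 to 3 and 2522 of 11581 within numbers 4 to 6. For Tfh5_4e4 over Tfh2_4e4, edgeR called 0 genes of the 7 within numbers 1 to 3, where 5 had an unadjusted p under 0.05. Within numbers 4 to 6 it called 3 (Selenbp1, Vldlr and Dpf1), and all 7 log2 fold changes were negative in both ranges. Of all genes, 96 of 11745 were called within numbers 1 to 3, with 1438 at an unadjusted p under 0.05. Within numbers 4 to 6, 122 of 11581 were called. Matk in TfhA_4e4 over Tfh5_4e4 was at -0.70 (adjusted p = 0.0698) within numbers 1 to 3 and at -1.27 (adjusted p = 0.000694) within numbers 4 to 6. The difference between the ranges was not tested.

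Some measures beside the 7 genes moved with the groups. The share of mitochondrial ribosomal RNA among the counts other than 2 very abundant identifiers was 14.8 ± 2.19% in TfhA_4e4 and 9.81 ± 1.24% in Tfh5_4e4, against 9.92 ± 0.989% in Tfh2_4e4, and in the Tfh2 series it was 8.41 ± 1.48% at 1e4 and 10.2 ± 1.20% at 6e4. Pecam1, an adhesion molecule of endothelium and of some T cells listed as an endothelial marker, averaged 9.91 CPM in TfhA_4e4 and 36.8 CPM in Tfh5_4e4, against 47.7 CPM in Tfh2_4e4, while the endothelial marker Cdh5 was at 0 counts. Tbx21, the T-bet gene of TH1 cells, was at 22.1 to 37.7 CPM in TfhA_4e4 and at 4.22 CPM in Tfh2_4e4 replicate 3, above the other Tfh2_4e4 libraries. The same held in Tfh2_2e4 replicate 6 (4.45 CPM). Without these 2 libraries together, 7, 4 and 1 of the 7 genes were called in the 3 comparisons, as with all libraries. Of all 11491 genes tested without them, 3859, 264 and 4615 were called. The part of the other measures in the results was not tested.

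Several of the 7 genes share their 3-prime end with a gene on the opposite strand, and the strand setting of the counting is not given in the sources used here. Gtpbp6, which overlaps the end of Plcxd1, had 15 counts over the Tfh2_6e4 libraries and none over those of Tfh2_1e4, against 1275 and 38 for Plcxd1. Mettl7b, at the end of Itga7, had 0 counts in all 34 libraries. Gm44632 lies antisense to the end of Dpf1, and reads of that pair cannot be told apart.

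Partners and relatives of the 7 genes, picked for their role with the data at hand, differed less along the Tfh2 numbers, with log2 ratios of Tfh2_6e4 to Tfh2_1e4 between -0.71 (Lck) and 0.77 (Plcxd2) for those with counts named next. Itgb1, the beta chain that pairs with Itga7, averaged 68.9 CPM in Tfh2_6e4 and 83.0 CPM in Tfh2_1e4. Dpf2, the widely expressed relative of Dpf1, averaged 52.9 CPM in Tfh2_6e4 and 46.3 CPM in Tfh2_1e4, and Dpf3 and the neuronal BAF subunit Actl6b had no count in any library, which allows up to 0.0575 CPM in the Tfh2_1e4 libraries together and 0.104 CPM in those of TfhA_4e4. Lrp8, the second reelin receptor, averaged 8.79 CPM in Tfh2_6e4 and 9.55 CPM in Tfh2_1e4. Lck, the Src family kinase of the T cell receptor, averaged 245.3 CPM in Tfh2_6e4 and 401.9 CPM in Tfh2_1e4, and Csk, the kinase most like Matk, stayed at 1.73 CPM or less in every group. Plcxd2 averaged 20.9 CPM in Tfh2_6e4 and 12.2 CPM in Tfh2_1e4. No test was made along the numbers.

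Between TfhA_4e4 and Tfh2_4e4, each of 7 lists of the genes' families held calls in both directions, to be read beside the 15.5% of all genes called higher and 17.4% called lower. For Tfh5_4e4 over Tfh2_4e4 no gene of these lists was called higher. Of 9 measured genes besides Enpp2 in the list on LPA supply, receptors and breakdown, 1 was higher and 1 lower in TfhA_4e4 than in Tfh2_4e4. Lpar6, an LPA receptor, fell to 11.04 CPM in TfhA_4e4, against 104.8 CPM in Tfh2_4e4 (log2 fold change -3.26, SE 0.172, edgeR adjusted p = 3.09e-20), and its Tfh2 means stayed within 95.6 to 104.8 CPM. Enpp4, a relative of autotaxin, averaged 10.4 CPM in TfhA_4e4 and 4.80 CPM in Tfh2_4e4 (1.11, SE 0.280, adjusted p = 0.0015). No gene of this list passed for Tfh5_4e4 over Tfh2_4e4.

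Of 12 measured genes besides Itga7 among laminin-binding integrins and integrin activators, 2 were higher and 3 lower in TfhA_4e4 than in Tfh2_4e4. Itga3, another laminin-binding alpha chain, averaged 40.9 CPM in TfhA_4e4 and 16.7 CPM in Tfh2_4e4 (log2 fold change 1.29, SE 0.213, adjusted p = 4.19e-06 from edgeR), opposite in direction to Itga7. In Tfh5_4e4 Itga3 averaged 9.76 CPM, against 16.7 CPM in Tfh2_4e4 (-0.77, SE 0.213, adjusted p = 0.0325), and it was the only gene of this list called there. The adaptor Lims1 and the integrin activator Tln1 fell in TfhA_4e4 by 0.83 and 0.49 on the log2 scale (adjusted p = 5.07e-05 and 0.00932).

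Of 24 measured BAF subunits other than Dpf1, 2 were called higher and 11 lower in TfhA_4e4 than in Tfh2_4e4, beside 15.5% and 17.4% of all genes, and their median log2 fold change was -0.25, against -0.01 over all genes. The list itself was not tested. Arid2, a targeting subunit, averaged 22.97 CPM in TfhA_4e4 and 42.0 CPM in Tfh2_4e4 (-0.87, SE 0.157, edgeR adjusted p = 1.78e-05), and Ss18 averaged 33.5 CPM in TfhA_4e4 and 54.2 CPM in Tfh2_4e4 (-0.69, SE 0.118, adjusted p = 6.32e-06). Bcl7a averaged 9.32 CPM in TfhA_4e4 and 4.04 CPM in Tfh2_4e4 (1.20, SE 0.289, adjusted p = 0.000986). None of the 24 passed for Tfh5_4e4 over Tfh2_4e4.

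Of 16 measured Src family kinases and regulators besides Matk, 3 were higher and 5 lower in TfhA_4e4 than in Tfh2_4e4. Src averaged 0.360 CPM in TfhA_4e4 and 7.61 CPM in Tfh2_4e4 (log2 fold change -4.16, SE 0.471, edgeR adjusted p = 9.06e-10), and the ubiquitin ligase gene Cbl 24.9 CPM in TfhA_4e4 and 51.7 CPM in Tfh2_4e4 (-1.05, SE 0.135, adjusted p = 1.99e-08). Fyn, a Src family kinase of T cells, averaged 142.2 CPM in TfhA_4e4 and 87.9 CPM in Tfh2_4e4 (0.69, SE 0.101, adjusted p = 3.36e-07). Only Sla, an adaptor that lowers receptor signalling, passed for Tfh5_4e4 over Tfh2_4e4 (-0.46, SE 0.126, adjusted p = 0.032).

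Of 12 measured relatives, ligands and regulators of Vldlr, 4 were higher and 3 lower in TfhA_4e4 than in Tfh2_4e4, with the adaptor Dab2 at 0.601 CPM in TfhA_4e4 and 4.79 CPM in Tfh2_4e4 (log2 fold change -3.09, SE 0.461, edgeR adjusted p = 5.21e-07). Among 10 measured phospholipase C genes besides Plcxd1, 1 was higher and 2 lower. Plcl1, a catalytically inactive relative, averaged 2.52 CPM in TfhA_4e4 and 7.90 CPM in Tfh2_4e4 (-1.67, SE 0.359, adjusted p = 0.000241). Besides Selenbp1, the list of selenium-binding proteins and selenoproteins held 16 measured genes, of which 2 were higher and 4 lower. Among them Gpx1, which reduces peroxides, averaged 172.8 CPM in TfhA_4e4 and 336.2 CPM in Tfh2_4e4 (-0.96, SE 0.105, adjusted p = 3.78e-10). Along the Tfh2 numbers Gpx1 ran the other way to Selenbp1, at 600.0, 450.2, 336.2 and 268.9 CPM. No gene of these 3 lists passed for Tfh5_4e4 over Tfh2_4e4.

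The genes most like the 7 in their levels over all 34 libraries were found by Pearson's r of log2 CPM, which is given as a description because libraries of a group share their culture. For Selenbp1 they were Ndrg1 (r = 0.98), Fam183b (0.98) and Hilpda (0.97), and for Vldlr Mgarp (0.98), Slc2a3 (0.98) and P4ha2 (0.98). Enpp2 went most closely with Fam183b (0.96), Ndrg1 (0.96) and Ly6c1 (0.95), and Plcxd1 with P4ha2 (0.96), Zfp395 (0.96) and Bend5 (0.96). Itga7 went most closely with Fam183b (0.96), Slc2a3 (0.95) and Samhd1 (0.95), Dpf1 with Gbe1 (0.96), Mt1 (0.94) and Slc2a3 (0.94), and Matk with Bend5 (0.96), Egln3 (0.96) and Samhd1 (0.95). Among the 7 themselves, r was highest between Selenbp1 and Vldlr (0.97) and lowest between Plcxd1 and Itga7 (0.86).

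The levels of these like genes differed widely. Slc2a3, a glucose transporter, averaged 10.8, 62.7, 269.9 and 416.1 CPM from Tfh2_1e4 to Tfh2_6e4, and stood at 116.3 CPM in TfhA_4e4 and 146.3 CPM in Tfh5_4e4. Fam183b averaged 0.171, 1.96, 19.2 and 36.2 CPM along the same numbers, and 9.72 CPM in TfhA_4e4 and 6.73 CPM in Tfh5_4e4. Ndrg1 averaged 11.4, 66.7, 179.0 and 241.1 CPM, and 105.6 CPM in TfhA_4e4 and 111.4 CPM in Tfh5_4e4. The metallothionein gene Mt1 was the most abundant, at 163.0, 436.9, 1246.0 and 1584.0 CPM along the numbers. In all 3 of Slc2a3, Fam183b and Ndrg1 the means of TfhA_4e4 and Tfh5_4e4 lay between those of Tfh2_2e4 and Tfh2_4e4. These genes were picked for likeness over all libraries, those of TfhA_4e4 and Tfh5_4e4 included, so this place follows from the choice.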

How the data were processed

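RNA of 34 libraries was measured as 3-prime reads (Lexogen QuantSeq, whose counts do not scale with transcript length). The authors deposited raw counts per gene identifier for each library, and the deposited values are whole counts. Per the submitters' processing notes, the tools were STAR 2.7.2b and featureCounts 1.6.4 and the build mm10, with no roles stated. How multi-mapping reads and strand were treated is not given in the sources used here. Symbols were matched by identifier to RefSeq for 25275 of 27179 identifiers. Identifiers 100861531 and 19791 held 48.3% of all counts (39.2% to 53.8% per library) and remain in the CPM totals.

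One edgeR model (version 4.0.16, R 4.3.3) over all 6 groups used TMM normalization and filterByExpr by group, which left 11357 genes with all 7 described here among them. Its quasi-likelihood F-tests were two-sided. Adjusted p-values are Benjamini-Hochberg over all genes tested, with a threshold of 0.05, for 3 comparisons at 4e4, of which those with Tfh2_4e4 share its libraries. Along the Tfh2 numbers, means of CPM were compared without a test. Log2 CPM for likeness used a prior count of 1. Alternatives used DESeq2 1.42.0, limma 3.58.1 and other settings. In a simulation of 11357 genes, 198, 199 and 198 tested genes had a log2 change of 1 in the 3 comparisons, in the order of the text. The fit called 61.1%, 63.8% and 60.6% of those changed genes. The measured comparisons called 32.8%, 3.11% and 39.5% of all genes. Since the adjustment depends on the share of changed genes, the simulated percentages are not the power of the measured tests. Intervals and floors (3 counts per group) cover counting error only.

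The genes and lists were chosen with earlier results of these data known. Other genes named are the paralog Selenbp2, the 3 most alike genes of each (mean log2 CPM of at least 1), up to 4 genes per list by size of change, and partners picked by role with values known. After group means were subtracted, 15 of the 80 same-numbered pairs had a correlation over 0.1, and numbers were not treated as pairs in the main fit. The mean correlation was 0.0494 for same-numbered pairs and -0.0098 for pairs with other numbers. A likeness by number is thus not excluded, and a fit with the number as a block is given below. No pair of libraries within a group agreed within sampling noise (lowest chi-square per gene 4.7).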

Additional observations from a re-analysis of the deposited data

Results flagged for a closer look

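Of 42 sets of libraries examined (7 genes in 6 groups), 2 held a library far from the others of its group. That is near the rate of about 1 in 20 that chance alone gives. Itga7 was at 9.83 CPM in Tfh2_2e4 replicate 5, against 1.67 to 3.80 CPM in the other 4 libraries. Dpf1 was at 42.0 CPM in Tfh2_4e4 replicate 5, against 21.1 to 28.9 CPM in the other 5 libraries.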

How the results depend on the processing

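With replicate number as a block, 584 genes were called for Tfh5_4e4 over Tfh2_4e4, against 353 without it; 16 of the 34 libraries were most like one that shares their number, and the block changed no other count by over 1.5 times. Within numbers 1 to 3 (fewer libraries), edgeR called 2300 genes for TfhA_4e4 over Tfh2_4e4, 3 of the 7 among them, and 96 genes for Tfh5_4e4 over Tfh2_4e4, with 0 of the 7. In that range 0 of the 7 were called for TfhA_4e4 over Tfh5_4e4 (1 at an unadjusted p under 0.05). Of all 11745 genes tested there, 3283 were called and 4474 had an unadjusted p under 0.05. Within numbers 4 to 6, 122 genes were called for Tfh5_4e4 over Tfh2_4e4 and 2830 for TfhA_4e4 over Tfh5_4e4, against 4489 with all libraries. The log2 fold change of TfhA_4e4 over Tfh5_4e4 turned for Enpp2 to 0.0024 without Tfh5_4e4 replicate 4, 0.0128 without TfhA_4e4 replicate 1 and 0.0576 within numbers 1 to 3, and for Selenbp1 to -0.0651 within numbers 4 to 6; the cause was not tested. With each library left out in turn, that fold change of Enpp2 ran over -0.2628 to 0.0128. Those fits gave 6 to 7, 3 to 5 and 1 of the 7 genes called in the 3 comparisons, and 3392 to 3786, 239 to 403 and 4181 to 4389 genes called. In all, 438 of 469 tested fold changes kept direction and side of the threshold. Without a filter on low counts, Enpp2 (adjusted p = 0.0199) and Plcxd1 (0.0202) passed for Tfh5_4e4 over Tfh2_4e4. Depth limits Selenbp1 at Tfh2_1e4, where it rests on 7 counts.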
